A study of Danio rerio and Xiphophorus maculatus with 12 samples.

Results

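Retinoid transport and metabolism was followed through 10 genes that carry retinol, convert it to retinoic acid, break retinoic acid down and receive its signal: rbp4, stra6, crabp2a, rdh10a, rdh10b, dhrs3a, aldh1a2, cyp26b1, cyp26a1 and rxraa. They were found by gene symbol, ignoring case, in the count tables of zebrafish and of platyfish, a teleost that bears live young. All 10 had a row among the 32520 zebrafish genes and 8 had one among the 24209 platyfish genes, where no row carried the symbol rdh10b or dhrs3a. In each species, uninjured ventricles were compared with ventricles collected 7 days after cryoinjury, in which a cold probe destroys a portion of the ventricular wall. A group consisted of 3 libraries made from 8 pooled ventricles each, which gives n = 3 pools for every mean below. The fish were wild type (WT) adults, the uninjured fish received no procedure at all, and atrium and bulbus arteriosus were removed. The tissue is a mixture of cell types, and in such bulk samples fewer cells of a type cannot be told apart from less RNA per cell.

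Vitamin A travels in blood as retinol bound to the carrier that rbp4 encodes, and STRA6 is the membrane receptor that takes retinol from it. Inside the cell, RDH10 enzymes oxidise retinol to retinal, DHRS3 enzymes reduce retinal back to retinol, and ALDH1A2 turns retinal irreversibly into retinoic acid. CRABP2 proteins bring retinoic acid to nuclear receptors, which act as pairs of a retinoic acid receptor and a retinoid X receptor, while CYP26 enzymes oxidise and thereby inactivate it. In zebrafish, aldh1a2 is known as a gene induced in the epicardium and endocardium after heart injury, and retinoic acid signalling as a requirement for heart regeneration.

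The libraries held 20735097 to 27994535 counts (zebrafish) and 19073562 to 31148127 counts (platyfish). Zebrafish cryoinjured replicates 2 and 3 stood apart, with 16530 and 15976 genes detected (at least 1 count) against 18102 to 18819 in the other zebrafish libraries, so zebrafish results that rest on them are also given without both. With both left out, 1 cryoinjured library remains and its spread is assumed to be that of the uninjured ones. Cardiomyocyte markers were abundant in every library (summed over the list, 44890 to 62650 CPM, counts scaled to a library total of 1e+06, in zebrafish and 36720 to 42910 in platyfish). No row of either table carried the ventricular myosin symbol vmhc. Levels of zebrafish and platyfish genes are set side by side without a test, because their gene tables and annotations differ. Genes of the mitochondrial genome made up 28.9% to 37.3% of the totals in zebrafish and 17.75% to 21.6% in platyfish. CPM leaves out the normalisation factors used for the fold changes. Scaling by library size alone put the median log2 fold change of all genes at 0.16 in zebrafish and 0.14 in platyfish.

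Changes with injury were tested with edgeR's quasi-likelihood test over all genes of a species with enough counts, and called at a Benjamini-Hochberg adjusted p under 0.05. In zebrafish 6 of the 10 genes had enough counts to be tested and 0 were called, against 0.98% of all 13470 genes tested. In platyfish 6 of 8 were tested and 0 were called, against 3.92% of 15226 genes. An unadjusted p under 0.05 was reached by 4 of the 6 in zebrafish, among 2083 genes in all, and by 1 of the 6 in platyfish, among 3678. DESeq2 called 2 in zebrafish (rbp4 and cyp26b1), against 3.96% of the genes to which it gave an adjusted p, and 1 in platyfish (rbp4), against 10.2%. The median log2 fold change of the 6 was 0.69 in zebrafish, beside -0.02 over all genes tested, and -0.48 in platyfish, beside 0.01. The 6 are those that passed a filter on low counts and are not the same 6 in both species. In zebrafish crabp2a passed it through its cryoinjured libraries alone, which favours a high fold change, and the median of the other 5 was 0.30. These medians are a description of the genes tested. The difference between the species' responses could be tested for 5 genes, and 1 of them, rbp4, was called, against 2.49% of 8098 genes. All these genes were chosen with the rbp4 difference already known.

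Normalised counts below are counts scaled to a common library size within a species. The carrier gene rbp4 (ENSDARG00000101199, chromosome 12) had 586, 724 and 819 normalised counts in the uninjured zebrafish libraries and 987, 1661 and 1863 in the cryoinjured ones. Every cryoinjured library lay above every uninjured one, and replicate 1 was the lowest of both groups. The means were 709.6 ± 117 (SD) and 1504 ± 459, which is 1.08 as a log2 fold change (standard error, SE, 0.23, adjusted p 0.0643). The unadjusted 95% interval ran from 0.57 to 1.60.

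That zebrafish value missed the threshold in the chosen fit but passed it under 5 of 13 alternatives, among them DESeq2 (adjusted p 0.000484) and a fit without cryoinjured replicate 1 (1.31, adjusted p 0.00903). Without cryoinjured replicates 2 and 3 the log2 fold change was 0.46 (adjusted p 0.742). In the authors' deposited table the zebrafish gene has a log2 fold change of 0.97 and an adjusted p of 0.000424. This and the other deposited fold changes quoted below are smaller in size than the deposited group means give. They are thus not on the scale of the values here. Within replicate numbers the log2 difference was 0.75, 1.20 and 1.19. Since the groups did not overlap, any pairing of the libraries would give positive values, and the labels do not say what a number shares.

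In platyfish, rbp4 (ENSXMAG00000021003, chromosome 10) had 1024, 2011 and 1745 normalised counts without injury and 455, 833 and 1184 after it. The cryoinjured libraries included the 2 lowest of the 6, and the groups overlapped, since uninjured replicate 1 lay below cryoinjured replicate 3. The means were 1593 ± 511 and 824 ± 365 (log2 fold change -0.95, SE 0.37, adjusted p 0.173). Within replicate numbers the log2 difference was -1.17, -1.27 and -0.56. The adjusted p was 0.0430 with DESeq2, and the authors' deposited table lists -0.80 with an adjusted p of 0.0434. Without uninjured replicate 2, the highest library, the edgeR value was -0.76 (adjusted p 0.359). Over the 12 alternatives the log2 fold change lay between -1.32 and -0.66.

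The responses of rbp4 in the species lay in opposite directions, and their difference (zebrafish minus platyfish) was 2.03 on the log2 scale (SE 0.47, interval 1.01 to 3.06, adjusted p 0.0405). The call held in 9 of 19 alternatives: every one of the 6 that kept all libraries, and 3 of the 12 that each dropped a single library. The difference stayed positive in all 19, between 1.41 and 2.40. The lowest value came without zebrafish cryoinjured replicates 2 and 3 together. Leaving out zebrafish uninjured replicate 1 gave 1.91 (adjusted p 0.106), and leaving out platyfish uninjured replicate 2 gave 1.84 (adjusted p 0.100). Of all platyfish libraries, that one had the most normalised rbp4 counts and the highest sum of listed exocrine pancreas genes (187 CPM). The other uninjured platyfish libraries had 7.29 and 3.93 CPM. The part of other tissue in the rbp4 difference was not tested.

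**Figure D1:**
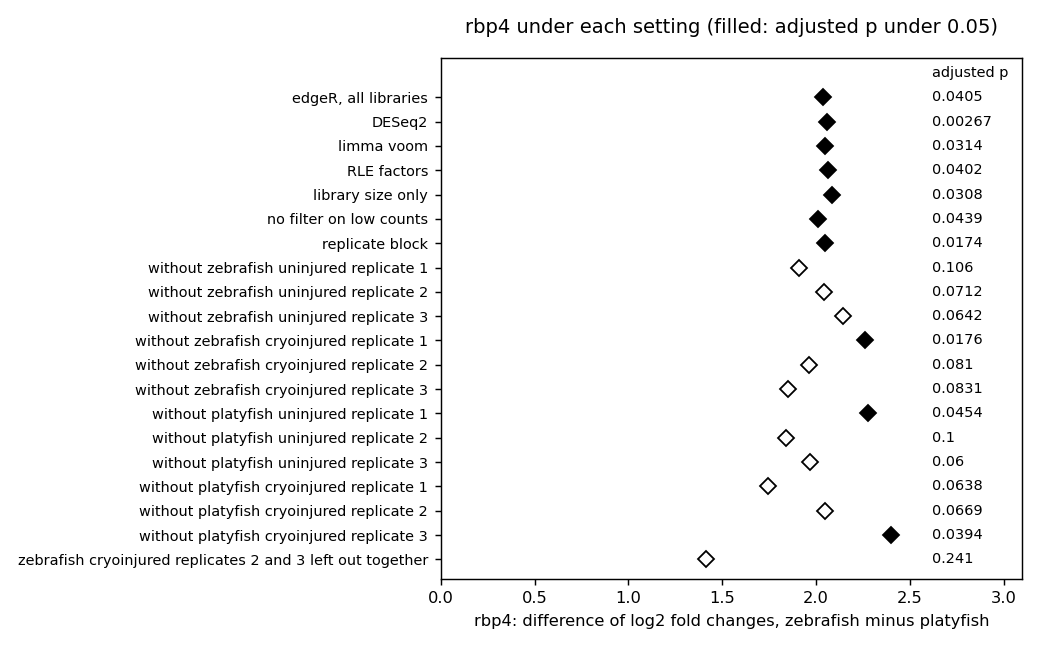
Difference of the rbp4 log2 fold changes (zebrafish minus platyfish, x axis) for the chosen fit and each of 19 alternatives (rows), with the adjusted p at the right. Filled diamonds have an adjusted p under 0.05; all values lie between 1.41 and 2.40, and all open diamonds are fits with libraries left out.

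Since rbp4 is best known as a liver product, a list of 16 liver transcripts was summed in each library. In zebrafish the list summed to between 0.508 and 0.929 CPM in uninjured libraries and between 1.18 and 2.89 CPM in cryoinjured ones, with 15 symbols in the table and fgg, ttr and serpinc1 at 0. In platyfish it summed to between 2.63 and 3.09 CPM and between 1.72 and 2.66 CPM, with 12 symbols in the table and ambp at 0. After injury the sums were thus higher in zebrafish, without overlap, and mostly lower in platyfish, where the groups overlapped. In zebrafish 0 of the listed genes had enough counts to be tested. In platyfish 2 had, with 1 at an unadjusted p under 0.05 and 0 called. All sums lay well below the mean rbp4 level of 27.6 and 65.1 CPM in zebrafish and 58.0 and 32.3 CPM in platyfish. Their part in the rbp4 result was not tested.

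The receptor gene stra6 had almost no counts in either species. It had 0 counts in all 6 zebrafish libraries, which at 145818771 counts in all allows a level of up to 0.0206 CPM (3 counts, counting error only). In platyfish it had 0, 0 and 2 counts without injury and 2, 0 and 1 after it, too few for a test.

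The retinoic acid carrier gene crabp2a had few counts in zebrafish and many in platyfish. In zebrafish (ENSDARG00000073978, chromosome 16) it had 4 counts in each uninjured library and 13, 18 and 21 in the cryoinjured ones. The groups did not overlap, with means of 4.05 ± 0.35 and 17.6 ± 5.75 normalised counts (2.08 on the log2 scale, SE 0.71, adjusted p 0.207). The gene passed the filter on low counts through the cryoinjured libraries alone, which favours a high fold change. None of 13 alternatives brought it past the threshold, and without cryoinjured replicates 2 and 3 the value was 1.47.

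In platyfish, crabp2a (ENSXMAG00000016304, chromosome 3) had 3157, 4531 and 1573 normalised counts without injury and 2133, 2289 and 2436 after it. The cryoinjured libraries lay close together and inside the range of the uninjured ones, whose replicate 3 was the lowest of all (log2 fold change -0.43, SE 0.33, adjusted p 0.457). Without that library the value was -0.75 (adjusted p 0.0494), in a fit that called 1007 of all genes rather than 597. Without uninjured replicate 2, the highest library, it was -0.06 (adjusted p 0.925). The difference between species was 2.51 (SE 0.65, adjusted p 0.0599). Zebrafish crabp2a entered this comparison through its cryoinjured libraries alone, which favours a positive difference. The difference passed the threshold in 4 of 19 alternatives, for example without platyfish uninjured replicate 3 (2.83, adjusted p 0.00866). It was 1.91 (adjusted p 0.325) without zebrafish cryoinjured replicates 2 and 3.

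**Figure D2:**
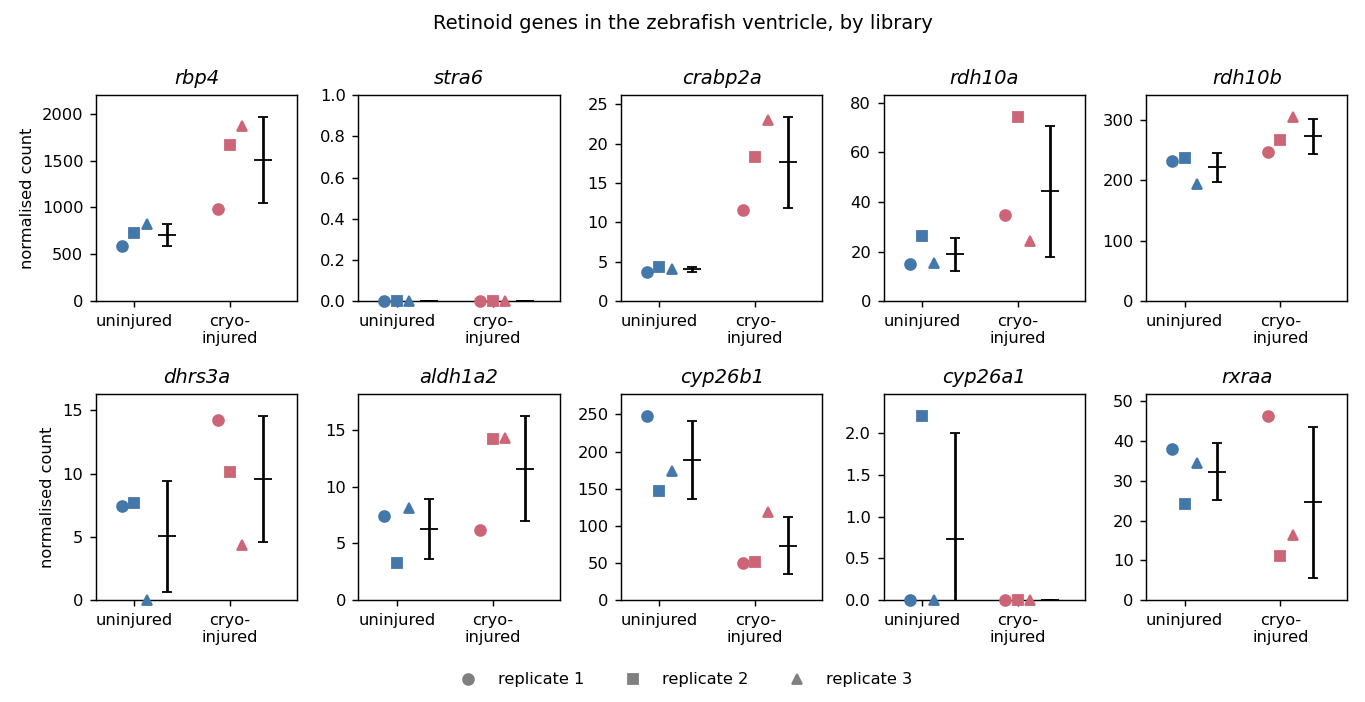
Normalised counts (y axis, a separate scale from 0 for each gene) of the 10 genes in the 3 uninjured and 3 cryoinjured zebrafish libraries, with the mean and SD beside each group (bars are cut at 0). For rbp4, crabp2a and rdh10b every cryoinjured library lies above every uninjured one, for cyp26b1 below, and stra6 is at 0 throughout. None of these genes was called, and the share of all genes whose groups separate was not determined.

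Of the enzymes that interconvert retinol and retinal, none was called. The retinol dehydrogenase gene rdh10a had 14.8, 26.4 and 15.2 normalised counts in uninjured zebrafish (ENSDARG00000058730, chromosome 24) and 34.6, 74.1 and 24.1 in cryoinjured ones. The groups overlapped through cryoinjured replicate 3, and cryoinjured replicate 2 was far above all others (log2 fold change 1.24, SE 0.55, adjusted p 0.314; 0.65 without cryoinjured replicate 2 and 0.87 without replicates 2 and 3). In platyfish (ENSXMAG00000024509, chromosome 21) its 141, 125 and 148 normalised counts without injury and 163, 121 and 159 after it overlapped almost fully (log2 fold change 0.10, SE 0.20, interval -0.35 to 0.55, adjusted p 0.793). The difference between species was 1.14 (SE 0.53, adjusted p 0.252). It was 0.56 without zebrafish cryoinjured replicate 2 and 0.78 without replicates 2 and 3.

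Its paralogue rdh10b, with a row in the zebrafish table only (ENSDARG00000012369, chromosome 2), had 233, 238 and 193 normalised counts without injury and 247, 267 and 304 after it. The groups did not overlap, but the lowest cryoinjured library was close to the highest uninjured one (log2 fold change 0.30, SE 0.19, interval -0.11 to 0.71, adjusted p 0.477). Without cryoinjured replicates 2 and 3 the value was 0.14. The opposing retinal reductase gene dhrs3a (ENSDARG00000044982, chromosome 23) had 8, 7 and 0 counts in uninjured zebrafish and 16, 10 and 4 in cryoinjured ones, an overlapping pair of groups with too few counts for the test.

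The gene for the enzyme that makes retinoic acid, aldh1a2, also had few counts in zebrafish and many in platyfish. In zebrafish (ENSDARG00000053493, chromosome 7) it had 8, 3 and 8 counts without injury and 7, 14 and 13 after it, or 0.244 and 0.497 CPM on average. The groups overlapped, and the counts were below the filter for the test. A fit without that filter gave a log2 fold change of 0.83 (SE 1.03, adjusted p 0.740).

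In platyfish, aldh1a2 (ENSXMAG00000028442, chromosome 4) had 395, 601 and 732 normalised counts without injury and 992, 591 and 790 after it, or 21.3 and 31.7 CPM on average. Cryoinjured replicate 1 was the highest, and cryoinjured replicate 2 lay below 2 uninjured libraries. The means were 576 ± 169.9 and 791 ± 201 (log2 fold change 0.46, SE 0.26, interval -0.12 to 1.04, adjusted p 0.307), and none of 12 alternatives brought it past the threshold.

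Epicardial cells are a known site of aldh1a2 expression. In platyfish the 5 listed epicardial genes in the table summed to between 56.4 and 60.6 CPM without injury and between 97.95 and 135 CPM after it. All 5 had positive log2 fold changes (median 0.82). Those of tbx18, gata5 and tcf21 were 0.82, 0.67 and 0.22, and heart muscle also expresses gata5. An unadjusted p under 0.05 was reached by 4 of the 5, and DESeq2 called 4. With edgeR 2 of the 5 were called. These were the Wilms tumour transcription factor genes wt1a (140.1 ± 13.6 to 409 ± 122 normalised counts, adjusted p 0.0162) and wt1b (56.8 ± 33.0 to 437 ± 111, adjusted p 0.0202), with log2 fold changes of 1.54 and 2.97. In platyfish cryoinjured replicate 1, aldh1a2, wt1a and crabp1a, a related carrier gene outside the epicardial list, were at their highest. The gene wt1b was highest in cryoinjured replicate 3. These genes were set side by side after their values were seen, and the other epicardial genes are not given by library.

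In zebrafish the epicardial list summed to between 117 and 131 CPM and between 113 and 138 CPM, most of it from gata5, which heart muscle also expresses. Of its 6 genes 3 were tested, 0 were called by edgeR or DESeq2, 1 had an unadjusted p under 0.05, and upk3b was at 0. The defining markers also had few counts: tcf21 had 6.93 ± 5.71 and 28.0 ± 19.7 normalised counts, and tbx18 had 9.34 ± 11.4 and 28.4 ± 16.8. The genes called in platyfish were too sparse for the test in zebrafish: wt1a had 6, 3 and 5 counts without injury and 5, 4 and 0 after it, and wt1b had 3, 3 and 2 and then 22, 10 and 24, without overlap. The part of the amount of epicardial tissue in the aldh1a2 values was not tested.

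**Figure D3:**
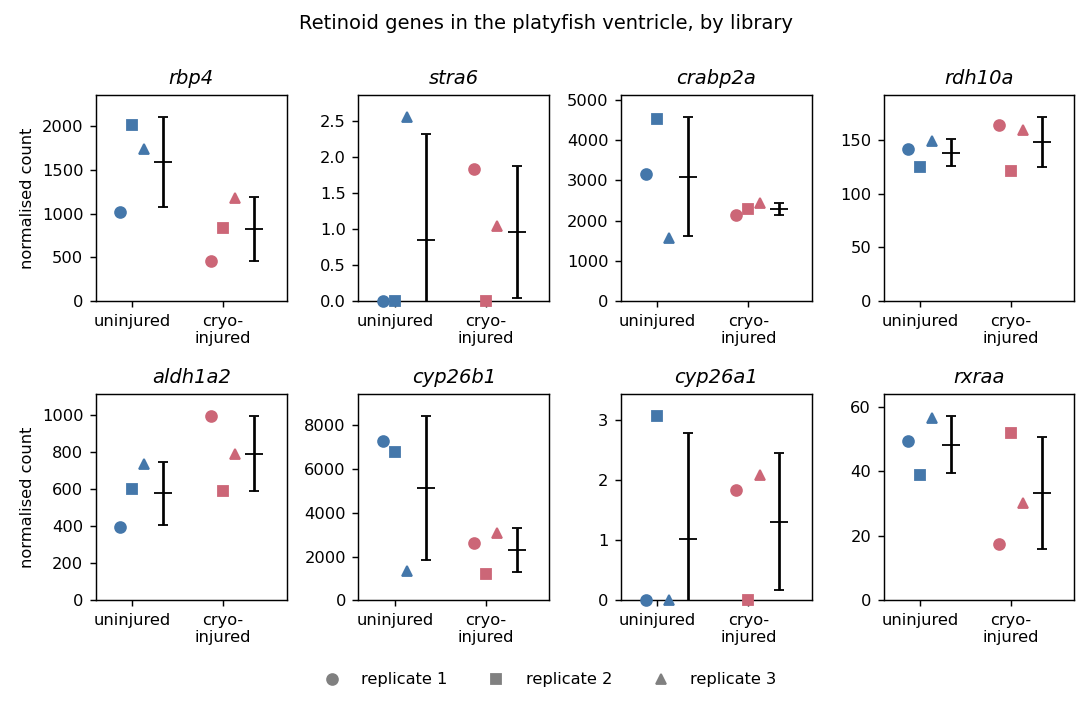
Normalised counts (y axis, a separate scale from 0 for each gene) of the 8 genes with a platyfish row in 3 uninjured and 3 cryoinjured libraries, with the mean and SD beside each group (bars are cut at 0). The groups overlap for every gene, and uninjured replicate 3 (blue triangle) is the lowest uninjured library for crabp2a and cyp26b1 and the highest for aldh1a2.

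The breakdown enzyme gene cyp26b1 had negative fold changes in both species, and neither was called. In zebrafish (ENSDARG00000077121, chromosome 7) it had 247, 146 and 173 normalised counts without injury and 50.6, 51.8 and 118 after it. Every cryoinjured library lay below every uninjured one, with replicate 3 nearest to them. The means were 189 ± 52.3 and 73.5 ± 38.7 (log2 fold change -1.37, SE 0.37, interval -2.19 to -0.55, adjusted p 0.115).

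The zebrafish value of cyp26b1 passed the threshold in 2 of 13 alternatives, DESeq2 (adjusted p 0.0156) and no filter on low counts (adjusted p 0.00912), and the authors' deposited table lists -1.02 with an adjusted p of 0.0139. It was -1.91 (adjusted p 0.317) without cryoinjured replicates 2 and 3. The cardiomyocyte list moved the same way in zebrafish, with 3 of 7 genes lower and sums of 54520 to 62650 CPM without injury and 44890 to 53910 CPM after it. Fibroblast markers went the other way, from 128 to 170 CPM up to 310 to 380 CPM, with 2 of 7 higher. Without cryoinjured replicates 2 and 3 these calls became 0 and 1. In platyfish the cardiomyocyte list summed to between 36830 and 41200 CPM without injury and between 36720 and 42910 CPM after it. Of its 4 tested genes 0 were called, and 2 had positive and 2 negative log2 fold changes. The part of tissue composition in the cyp26b1 values was not tested in either species.

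In platyfish, cyp26b1 (ENSXMAG00000000554, chromosome 14) had 7280, 6753 and 1361 normalised counts without injury and 2638, 1184 and 3072 after it. The groups overlapped through uninjured replicate 3 alone, which lay far below the other uninjured libraries and within the range of the cryoinjured ones. The log2 fold change was -1.16 (SE 0.64, interval -2.70 to 0.38, adjusted p 0.322), and it was -1.61 (adjusted p 0.0436) without that library. The fit without it called 1007 of all genes rather than 597. Leaving out any other single library gave -1.44 to -0.83 and no call. Within replicate numbers the log2 difference was -1.46, -2.51 and 1.17. Uninjured replicate 3 has the lowest total of all 12, at 19073562 counts, and in it crabp2a was also lowest and aldh1a2 highest among the uninjured platyfish libraries.

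For cyp26b1 the difference between species was -0.21 (SE 0.76, interval -1.84 to 1.42, adjusted p 0.905). The interval includes differences of more than a doubling in either direction, and the value was positive in 3 of the 12 fits that each dropped a single library. The related gene cyp26a1, which retinoic acid induces strongly in embryos, had almost no counts: 0, 2 and 0 counts in uninjured and 0 in each cryoinjured zebrafish library, and 0, 3 and 0 against 2, 0 and 2 in platyfish. Another CYP26 gene, cyp26c1, which is not among the 10, had 0 counts in every zebrafish library and at most 1 in a platyfish library.

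The retinoid X receptor gene rxraa varied within groups as much as between them. In zebrafish (ENSDARG00000057737, chromosome 21) it had 38.0, 24.2 and 34.4 normalised counts without injury and 46.2, 11.2 and 16.4 after it. Cryoinjured replicate 1 was the highest of the 6 and replicates 2 and 3 the lowest, so that the log2 fold change was -0.38 (SE 0.58, adjusted p 0.796) with them and 0.50 without both. In platyfish (ENSXMAG00000001735, chromosome 8) it had 49.4, 38.8 and 56.3 against 17.5, 51.9 and 30.3 (log2 fold change -0.53, SE 0.42, adjusted p 0.474). Between species the values differed by 0.16 (adjusted p 0.930), and by 1.03 (adjusted p 0.485) without zebrafish cryoinjured replicates 2 and 3.

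**Figure D4:**
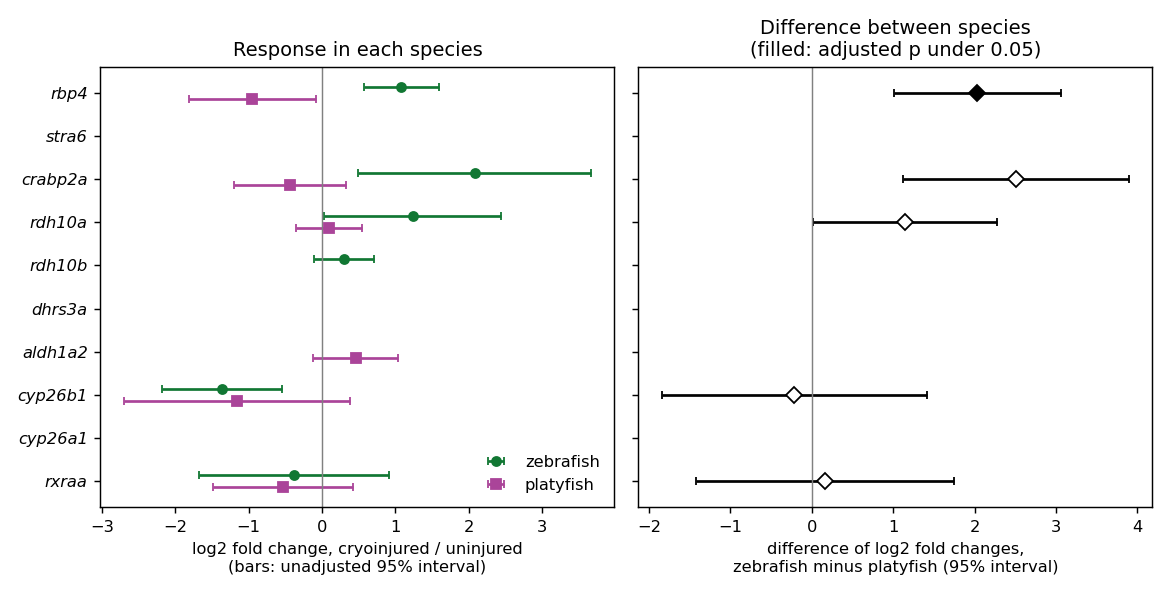
Left, log2 fold change of each gene (cryoinjured over uninjured) with its unadjusted 95% interval in zebrafish (green circles) and platyfish (purple squares). Right, their difference (zebrafish minus platyfish) with its interval, filled where the adjusted p was under 0.05, which holds for rbp4 at 2.03. Genes with no point were not tested.

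Beyond these genes, 109 symbols of the wider pathway were listed by role. In zebrafish 91 had a row and 49 were tested, of which 2 were higher and 0 lower, against 0.676% and 0.304% of all genes tested. Both were members of a role where others did not pass. The cellular retinol binding protein gene rbp5 was 1 of 4 tested carrier and uptake genes. It would not have been tested on its uninjured libraries alone. The transglutaminase gene tgm2b was 1 of 7 tested genes known as retinoic acid targets. In platyfish 66 had a row and 43 genes were tested, of which 1 was higher (tgm2b) and 1 lower (dhrs3b), against 2.7% and 1.22% of all genes tested. The difference between species was tested for 28 with edgeR and called for 0, against 1.14% more positive in zebrafish and 1.36% more positive in platyfish over all genes. An unadjusted p under 0.05 was reached by 3 of the 28, and by 1578 of the 8098 genes tested. DESeq2 called 1, against 6.72% of all genes to which it gave an adjusted p. Without zebrafish cryoinjured replicates 2 and 3 the zebrafish calls became 0. The median log2 fold change was 0.08 in zebrafish and -0.02 in platyfish, and the median difference was 0.27.

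The zebrafish carrier gene rbp5 (ENSDARG00000101481) had 14, 11 and 8 counts without injury and 63, 100 and 101 after it (11.1 ± 2.59 and 89.3 ± 29.3 normalised counts). The groups were well apart, and the log2 fold change was 3.00 (SE 0.44, adjusted p 0.0129). On its uninjured libraries alone rbp5 would not have passed the filter on low counts, which favours a high fold change. Its call did not survive in 4 of the 6 fits with a single library dropped, under limma voom, and without cryoinjured replicates 2 and 3 (2.31, adjusted p 0.395). In platyfish, rbp5 (ENSXMAG00000011354) had 28.7, 13.3 and 17.9 against 34.9, 34.3 and 63.7 (log2 fold change 1.13, SE 0.43, adjusted p 0.155), and the difference between species was 1.87 (SE 0.62, adjusted p 0.120).

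The retinal reductase gene dhrs3b, a paralogue of dhrs3a, fell in platyfish (ENSXMAG00000021912). It had 9140, 8018 and 9056 normalised counts without injury and 5268, 2555 and 4439 after it. Every cryoinjured library lay well below every uninjured one (log2 fold change -1.10 ± 0.25 SE, adjusted p 0.0494). In 9 of 12 alternatives it was not called, with values between -1.32 and -0.85 in all 12. In zebrafish (ENSDARG00000044803) it had 296, 315 and 305 against 226, 276 and 227 normalised counts, again without overlap, and the change did not pass the test (-0.33 on the log2 scale, SE 0.17, adjusted p 0.402). Between species the difference was 0.77 (SE 0.30, adjusted p 0.189).

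The target gene tgm2b rose in both species. In zebrafish (ENSDARG00000074094) it had 433, 404 and 419 normalised counts without injury and 855, 1092 and 1420 after it (log2 fold change 1.42, SE 0.18, adjusted p 0.00687). The groups were well apart, and the call was lost without cryoinjured replicate 2 (adjusted p 0.0548) and without replicates 2 and 3 (1.02, adjusted p 0.210). In platyfish (ENSXMAG00000018589) it had 923, 1316 and 681 against 2046, 1882 and 2644 (1.17 on the log2 scale, SE 0.24, adjusted p 0.0388), a call that 5 of the 6 fits with a single library dropped did not repeat.

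The other wider genes named here are the most abundant tested ones of each role, and none of them passed the threshold. In zebrafish these were the carrier and uptake genes rbp2a (log2 fold change -0.72) and scarb1 (-0.07). Others were the carotenoid oxygenases bco2a (-0.13) and bco1l (0.50) and the oxidoreductases dhrs4 (-0.38) and rdh14b (-0.10). Further ones were aldh8a1 (-0.14), listed under retinoic acid synthesis, the receptor coactivator ncoa2 (0.05), and the target meis1b (-0.35). In platyfish they were scarb1 (0.40), crabp1a (0.86), the lipase genes lipeb (-0.08) and lipea (0.42), dhrs9 (0.03), cyp1b1 (0.29), ncoa2 (-0.56, adjusted p 0.0625), ncoa3 (-0.32) and nr2f2 (-0.04). Beside the platyfish values given, second tested rows with the symbols dhrs9, ncoa2 and ncoa3 had -0.415, -0.03 and -0.33. The aldehyde dehydrogenase gene aldh1a3, also listed under retinoic acid synthesis, was at 0 counts in every library of both species.

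**Figure D5:**
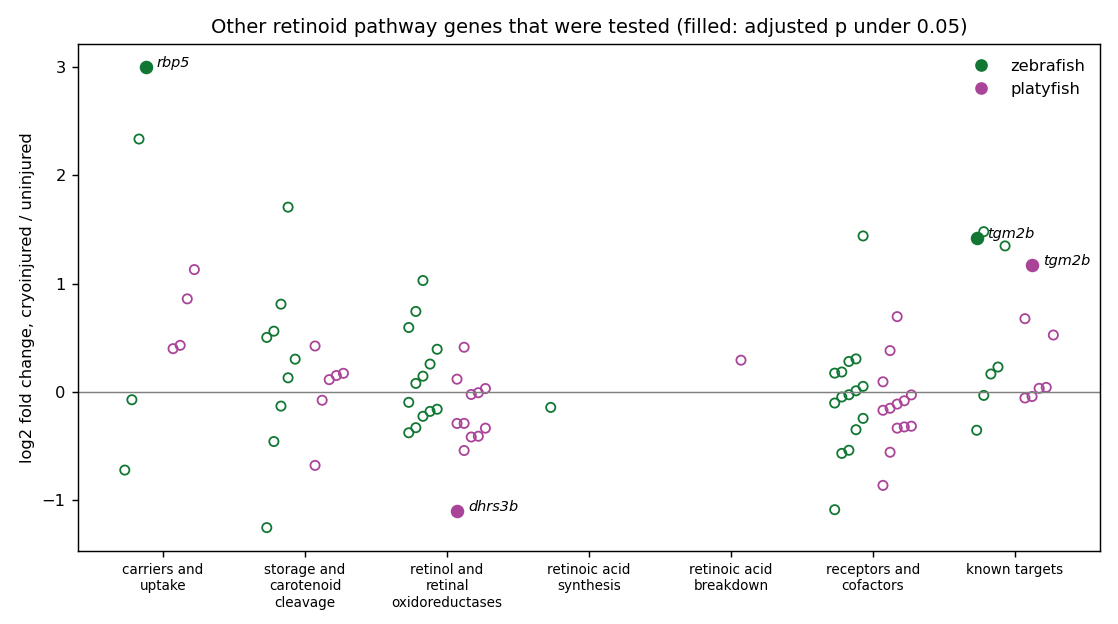
Log2 fold change (cryoinjured over uninjured, y axis) of each tested gene of the wider retinoid lists, by role, in zebrafish (green) and platyfish (purple). Filled circles passed an adjusted p of 0.05: rbp5 at 3.00 and tgm2b at 1.42 in zebrafish, tgm2b at 1.17 and dhrs3b at -1.10 in platyfish.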

How the data were processed

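The authors deposited raw counts per gene, used here as they stand. They also deposited normalised counts (a signal equal to the counts times 1 constant per library) with log2 fold changes, Wald scores and adjusted p-values of their own comparison, quoted only as the authors' deposited table. Per the submitters' processing notes, FastQC, HISAT2 2.2.1, featureCounts 2.0.1 and DESeq2 1.38.3 were used with GRCz11, a zebrafish build that the notes also list for platyfish. The platyfish build, the annotation release, the strand setting and the handling of reads shared by paralogues are not given in the sources used here. Per the labels' protocols, RNA was made into stranded poly(A) libraries. In the cryoinjured platyfish libraries 1 label, the treatment, says zebrafish; their titles, organism and library names say platyfish, which was used.

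The test was edgeR 4.0.16 (R 4.3.3), run on each species by itself (filterByExpr, TMM factors, robust glmQLFit and glmQLFTest, threshold 0.05 after Benjamini-Hochberg adjustment over all genes). The SE was taken as |log2 fold change| / sqrt(F). The difference between species was tested over 12 libraries and the 13662 symbols found once in each table, of which 8098 had enough counts; a shared symbol does not establish orthology. Alternatives were DESeq2 1.42.0, limma 3.58.1 (voom), RLE factors, library size only, no filter, the replicate number as a block, leaving out each library and, chosen after seeing the data, leaving out zebrafish cryoinjured replicates 2 and 3 together. The methods were tested on simulated counts. Figures were drawn with matplotlib 3.10.9.

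The genes, the wider lists and the marker lists (cardiomyocyte, epicardium, fibroblast, liver, endothelium, leukocyte, exocrine pancreas, atrium, outflow tract smooth muscle) were chosen with earlier results of these data known, among them the rbp4 difference. Of the wider lists, the text names each gene called in a comparison and the 2 most abundant tested genes of each role, except 1 that is not reported here; crabp2b, wt1a, wt1b, tcf21, tbx18, gata5, cyp26c1 and aldh1a3 were named after their values were seen. Within groups no library copied another: counts differed with a chi-square of 21.2 or more per degree of freedom. Pairs across groups were not compared in this way. The labels give replicate numbers, and nothing says what a number shares. Total counts set the counting precision, and reads without molecular identifiers are not independent molecules.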

Additional observations from a re-analysis of the deposited data

Results flagged for a closer look

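The difference between species in the rbp4 response to injury, 2.03 on the log2 scale (SE 0.47, adjusted p 0.0405, edgeR), is given here because the difference itself was tested and passed the threshold. Its sign was the same in all 19 alternatives, and the call was lost in 10 of them. The genes followed here were chosen with this difference already known.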

How the results depend on the processing

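The count of retinoid genes called was 0 in zebrafish and became 2 with DESeq2, 1 with library size only, 2 with no filter on low counts and 1 with the replicate block. Leaving out one library gave 0 to 1. In platyfish it was 0 and became 1 with DESeq2 and 1 with the block, and leaving out one library gave 0 to 2. For the difference it was 1 and became 2 with DESeq2, 2 with library size only and 0 without zebrafish cryoinjured replicates 2 and 3, with 0 to 2 when one library was left out. Over all genes, the zebrafish count of 132 became 528 with DESeq2, 229 with library size only, 517 with no filter, 184 with the block, 29 to 288 with one library left out and 11 without cryoinjured replicates 2 and 3. The platyfish count of 597 became 1623 with DESeq2, 256 with the block and 27 to 1007 with one library left out. The difference count of 202 became 679 with DESeq2, 123 with library size only, 83 with the block, 66 to 480 with one library left out and 21 without the pair. Library size only shifted the median log2 fold change of all genes to 0.16 in zebrafish and 0.14 in platyfish, and the share of higher among called genes from 68.9% to 97.8% and from 68.8% to 84%; for the difference the share went from 45.5% to 58.5%. The cause of these changes was not tested.

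Values that changed sign were the cyp26b1 difference (-0.73 to 0.24 with one library left out), 0.02 without zebrafish uninjured replicate 1, 0.24 without platyfish uninjured replicate 3 and 0.07 without platyfish cryoinjured replicate 3, and the rxraa difference (-0.70 to 0.64), -0.01 without zebrafish uninjured replicate 2, -0.70 without zebrafish cryoinjured replicate 1 and -0.15 without platyfish cryoinjured replicate 1. The zebrafish rxraa value became 0.50 without cryoinjured replicates 2 and 3. Of the other named-gene values under an alternative, 240 kept direction and side of the threshold, 33 lost the call and 15 gained it. The replicate numbers were not taken as pairs: deviations from the group means of same-numbered zebrafish libraries had correlations of 0.134, 0.140 and 0.0123, and those of platyfish libraries -0.0854, -0.184 and -0.178. With the replicate block, rbp4 was past the threshold in zebrafish (1.05, adjusted p 0.0170) and in platyfish (adjusted p 0.0425), its difference stayed past it (adjusted p 0.0174), and the platyfish calls of dhrs3b (adjusted p 0.0514) and tgm2b (adjusted p 0.0801) were lost. The genes not tested had 0 to 16 counts per library.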

Other observations

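Markers of other cell types gave these values. Endothelial genes (8 listed) summed to between 483 and 537 CPM in uninjured and between 607 and 786 CPM in cryoinjured zebrafish, and to between 623 and 928 CPM and between 570.5 and 828 CPM in platyfish, with 0 called by edgeR in both species (unadjusted p under 0.05 for 5 in zebrafish and 1 in platyfish) and 0 by DESeq2. Leukocyte genes summed to between 42.2 and 76.5 CPM and between 83.7 and 94.0 CPM in zebrafish, and to between 234 and 471 CPM and between 454 and 530.5 CPM in platyfish, with 0 called by edgeR (3 and 3 at an unadjusted p under 0.05) and 0 and 2 by DESeq2. Fibroblast genes in platyfish summed to between 79.7 and 96.8 CPM and between 277 and 564 CPM, with 4 of 6 higher. Outflow tract smooth muscle genes summed to between 18.0 and 24.3 CPM and between 67.95 and 81.1 CPM in zebrafish, and to between 88.3 and 178 CPM and between 198 and 418 CPM in platyfish, with 1 higher in each species. The atrial list held myh6 and nppa. In zebrafish both had a row and summed to between 3082 and 3969 CPM in uninjured and between 3818 and 4766 CPM in cryoinjured libraries. Their fold changes went opposite ways there, with myh6 at -1.10 on the log2 scale. In platyfish only myh6 had a row, at between 2.46 and 17.8 CPM and between 6.36 and 18.0 CPM. In both species 0 were called by edgeR or DESeq2, with 0 at an unadjusted p under 0.05. Whether these sums reflect atrial tissue was not tested. Exocrine pancreas genes summed to between 3.33 and 6.71 CPM in zebrafish libraries and to at most 7.77 CPM in cryoinjured platyfish ones, and reached 187 CPM in platyfish uninjured replicate 2.

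Among wider genes too sparse for the test, the carrier gene crabp2b had 1, 0 and 0 counts in uninjured and 5, 5 and 19 in cryoinjured zebrafish libraries, and 4, 1 and 1 against 22, 9 and 14 in platyfish. In neither species did the groups overlap. Both values were picked out after they were seen.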
